A study of Mus musculus with 10 samples.

Results

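The transcripts of 36 genes that help proteins fold, or that respond when folding fails, were read in mouse liver 12 hours after partial hepatectomy. The genes were chosen by name for their known roles. The rule uses no measured value, but the choice was made with earlier results of these data known. All 36 were found among the 23056 gene symbols of the count table. They comprise 3 genes of stress sensing in the endoplasmic reticulum (ER), 18 ER chaperones and factors of ER-associated degradation, 12 cytosolic chaperones and co-chaperones, and 3 mitochondrial chaperones. The first 3, Atf6, Ern1 and Xbp1, are called the sensor group here, although XBP1 acts downstream of a sensor and is not one itself. All 36 passed the filter on low counts and were among the 13688 genes tested. Sequencing of poly(A)-selected RNA gave 4 liver libraries with the genotype label IFRD1-KO (KO) and 6 with the label WT (wild type). Both groups had the left lateral and median lobes resected under isoflurane and were sampled 12 hours later. The sources used here do not give strain, sex, age, the allele or the cells in which the gene was disrupted. No unoperated liver was analysed here, so every comparison is between genotypes after surgery.

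Proteins that enter the secretory pathway fold in the ER with the help of the HSP70-type chaperone BiP (Hspa5), the HSP90-type chaperone GRP94 (Hsp90b1), lectin chaperones and disulfide isomerases. When unfolded protein accumulates, the membrane sensors ATF6, IRE1alpha (Ern1) and PERK start the unfolded protein response, in which cleaved ATF6 and the spliced form of XBP1 switch on genes of chaperones and of ER-associated degradation, the route that returns misfolded proteins to the cytosol for destruction. In the cytosol, HSF1 controls the heat shock genes, and mitochondria hold an HSP70 (Hspa9) and an HSP60-HSP10 chamber (Hspd1 and Hspe1) of their own. The hepatocyte secretes most plasma proteins, so ER chaperone transcripts are abundant in liver.

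Library totals lay between 12675838 and 17098012 counts in KO and between 12307446 and 14340623 counts in WT. The 36 members took between 0.736% and 1.06% of counts in KO and between 0.627% and 1.28% in WT. Genes encoded in mitochondrial DNA took between 16.5% and 30.5% of counts in KO and between 14.5% and 28.9% in WT. The relation of that share to the members was not tested. The targeted gene Ifrd1 was at 13.0 to 22.6 CPM (each library's counts scaled to a common total, adjusted by TMM) in KO and 40.2 to 81.7 CPM in WT, with no overlap. WT replicate 4 stood nearer to the KO libraries than to the other WT libraries in 28 of the 36 members. This was measured by its distance to the mean of each on the log2(CPM + 0.5) scale. The same count was not made over all genes tested, so it is not read as a trait of the members. Values without this library are given for each member whose call depends on it and for the counts of calls. As it was singled out for lying near KO, leaving it out favours larger differences by that choice. Values without it are a description and add no support to a call. No batch is named in the labels. In bulk liver, fewer cells of a type and less RNA per cell cannot be told apart.

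The control sequences of these genes are shown first, searched for motifs of the ER stress response and of the heat shock response. A window from 250 bases before to 50 bases after the gene start was at hand for 29 of the 36 members, from RefSeq on build GRCm38.p6. The ER stress response element (ERSE), CCAAT and CCACG with any 9 bases between, which is known to be bound by NF-Y and ATF6, was searched on both strands. It was present in the windows of 7 of 16 ER chaperone and degradation genes and in 0.137% of the 27025 genes of the same table. It was present in 0 of 2 genes of the sensor group, 0 of 9 cytosolic and 0 of 2 mitochondrial members. Its 8 copies are written below from CCAAT to CCACG with both half-sites in capitals, so that they can be compared.
Hspa5: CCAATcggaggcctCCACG
Hsp90b1, far copy: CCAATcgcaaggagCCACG
Hsp90b1, near copy: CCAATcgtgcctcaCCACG
Calr: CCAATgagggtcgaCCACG
Canx: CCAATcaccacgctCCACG
Creld2: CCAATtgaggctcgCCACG
Dnajc3: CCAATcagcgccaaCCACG
Pdia6: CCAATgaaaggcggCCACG
The copies of Calr and Creld2 and the near copy of Hsp90b1 lie in the reverse orientation relative to the gene. All 8 lay upstream of the start, with the first base between -212 and -65.

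A shorter relative, ERSE-II (ATTGG and CCACG with any 1 base between), was found in Herpud1, with its first base at -52, and in Dnajb11, with its first base at 7. It was present in 0.0444% of all genes of the table. The heat shock element was searched on both strands as GAA, TTC, GAA or TTC, GAA, TTC with any 2 bases between units. It was found in Hspd1, Hspe1 and Hsph1 and in 0.662% of all genes. These were 2 of 2 mitochondrial and 1 of 9 cytosolic members, with 0 of 16 ER chaperone and degradation genes. In the wider lists of folding genes described below, it was in 3 of 40 ER genes and 2 of 33 cytosolic genes with a window. ERSE was in 3 of those 40 ER genes and 0 of those 33 cytosolic genes. The core of another unfolded protein response element, TGACGTGG, was found in 0 of the 29 members and in 0.714% of all genes. No match of one motif in the members overlapped a match of another. The heat shock elements of Hspd1 and Hspe1 are the same bases read on opposite strands, a pair of overlapping matches.

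Whole windows are given for 6 members that the results turn on, with matches in capitals. Hspa5, Hsp90b1 and Calr carry ERSE and had unlike fold changes between the genotypes. Herpud1 carries ERSE-II. Hspe1 shares its control region with Hspd1, and Bag3 is the member that passed the test.
Hspa5, chr2:34771840-34772139, plus strand: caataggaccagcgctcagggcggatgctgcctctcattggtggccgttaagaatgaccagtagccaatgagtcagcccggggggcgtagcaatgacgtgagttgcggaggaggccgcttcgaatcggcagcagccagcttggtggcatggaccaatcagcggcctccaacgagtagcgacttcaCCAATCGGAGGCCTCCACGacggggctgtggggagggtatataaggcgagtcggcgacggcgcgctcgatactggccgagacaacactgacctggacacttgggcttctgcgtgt
Hsp90b1, chr10:86705395-86705694, minus strand: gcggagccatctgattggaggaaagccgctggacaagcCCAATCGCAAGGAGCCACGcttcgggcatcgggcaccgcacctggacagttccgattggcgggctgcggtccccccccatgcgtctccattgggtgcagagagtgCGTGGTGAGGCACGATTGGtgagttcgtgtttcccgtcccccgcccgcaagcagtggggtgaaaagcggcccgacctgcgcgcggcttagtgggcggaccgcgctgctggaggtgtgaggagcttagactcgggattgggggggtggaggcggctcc
Calr, chr8:84846882-84847181, minus strand: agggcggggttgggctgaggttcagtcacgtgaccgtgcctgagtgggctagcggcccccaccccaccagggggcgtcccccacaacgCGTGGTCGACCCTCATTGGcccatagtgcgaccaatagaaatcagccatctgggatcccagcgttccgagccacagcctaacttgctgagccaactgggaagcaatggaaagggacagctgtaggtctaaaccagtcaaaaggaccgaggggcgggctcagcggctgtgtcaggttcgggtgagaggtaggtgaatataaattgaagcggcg
Herpud1, chr8:94386179-94386478, plus strand: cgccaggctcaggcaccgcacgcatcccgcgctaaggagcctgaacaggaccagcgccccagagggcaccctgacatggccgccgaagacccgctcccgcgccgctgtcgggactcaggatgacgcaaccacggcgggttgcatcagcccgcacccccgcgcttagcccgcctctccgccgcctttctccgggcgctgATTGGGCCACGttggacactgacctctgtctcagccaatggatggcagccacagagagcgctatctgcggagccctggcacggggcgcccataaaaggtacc
Hspe1, chr1:55087898-55088197, plus strand: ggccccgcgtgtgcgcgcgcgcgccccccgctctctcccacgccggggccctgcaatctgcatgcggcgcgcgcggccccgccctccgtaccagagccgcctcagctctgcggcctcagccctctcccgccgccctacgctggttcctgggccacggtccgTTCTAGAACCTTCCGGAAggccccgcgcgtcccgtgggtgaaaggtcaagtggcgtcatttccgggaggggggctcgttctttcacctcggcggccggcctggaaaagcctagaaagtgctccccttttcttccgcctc
Bag3, chr7:128523333-128523632, plus strand: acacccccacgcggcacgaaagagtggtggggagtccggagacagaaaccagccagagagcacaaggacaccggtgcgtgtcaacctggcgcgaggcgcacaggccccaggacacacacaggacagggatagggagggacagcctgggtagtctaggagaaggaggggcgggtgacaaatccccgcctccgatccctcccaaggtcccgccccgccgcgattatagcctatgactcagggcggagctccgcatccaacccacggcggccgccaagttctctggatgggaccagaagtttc
The Bag3 window has no match to these 4 motifs, which says only that these letters are not in it.

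Relative to length, ER members held the top of the order in both genotypes. In CPM per kilobase of annotated exon, Calr was at 494 in KO and 353 in WT, Hsp90b1 at 349 in KO and 309 in WT, and Hspa5 at 257 in KO and 434 in WT. These were the 3 highest of the 36, with Calr ranked 1 in KO and Hspa5 ranked 1 in WT. The highest cytosolic member was Hsp90ab1, the constitutive HSP90, at 162 in KO and 173 in WT. The 6 lowest in both genotypes were the sensors Atf6 (2.62 in KO, 4.79 in WT) and Ern1 (5.31 in KO, 2.81 in WT), the heat shock genes Hsph1 (4.37 in KO, 4.02 in WT) and Dnajb1 (4.09 in KO, 3.82 in WT), and the heat-inducible HSP70 genes Hspa1b (2.69 in KO, 2.65 in WT) and Hspa1a (0.223 in KO, 0.554 in WT). Hspa1a was lowest in both. Xbp1 was at 68.4 in KO and 109.6 in WT. The exon length pools all annotated transcripts, so genes whose liver transcript is shorter are understated.

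**Figure D1:**
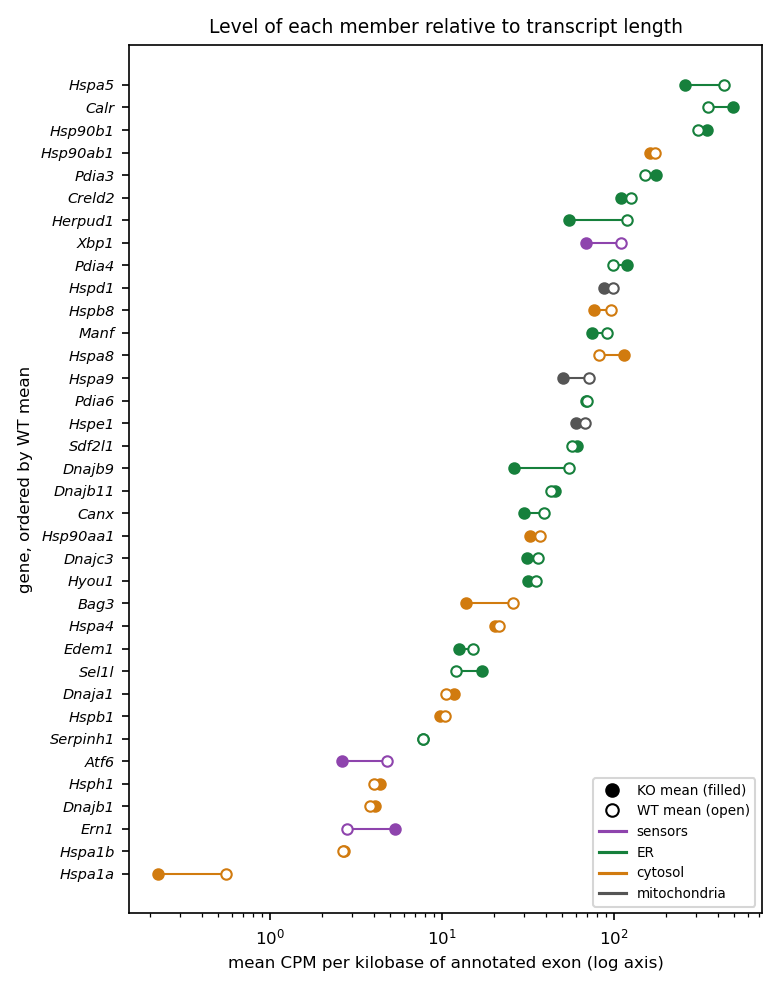
Mean level of the 36 members in CPM per kilobase of annotated exon (log axis), with KO as filled and WT as open circles and colour by compartment. ER genes fill the top of the order, from Calr and Hspa5 downward, and Hspa1a is lowest, at 0.223 in KO and 0.554 in WT.

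Across the 36 members 1 gene, the cytosolic co-chaperone Bag3, passed the test between KO and WT and 35 did not. Passing means a Benjamini-Hochberg adjusted p under 0.05 in the quasi-likelihood test of edgeR, which gave all adjusted p-values below unless another tool is named. Over all genes tested 1.33% passed, with 0.563% higher and 0.767% lower in KO. At an unadjusted p under 0.05, KO exceeded WT in 1 member (Ern1) and lay below it in 8, where the shares of all genes tested were 11.6% and 14.4%. Without WT replicate 4, 3 members were called higher (Ern1, Hspa8, Sel1l) and 4 lower (Xbp1, Atf6, Bag3, Hspa9), in a fit in which 21.4% of all genes tested passed. The median log2 fold change (KO over WT) was -0.13 over the members and -0.02 over all genes tested. By compartment it was -0.68 over the 3 genes of the sensor group and -0.09 over the 18 ER genes. It was -0.09 over the 12 cytosolic genes and -0.18 over the 3 mitochondrial genes. Fold changes below 0 were found in 2 of 3 genes of the sensor group and 10 of 18 ER genes. They were found in 7 of 12 cytosolic genes and 3 of 3 mitochondrial genes, against 51.6% of all genes tested. The libraries of KO and WT did not overlap in 1 of the 36 members and in 6.90% of all genes tested.

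**Figure D2:**
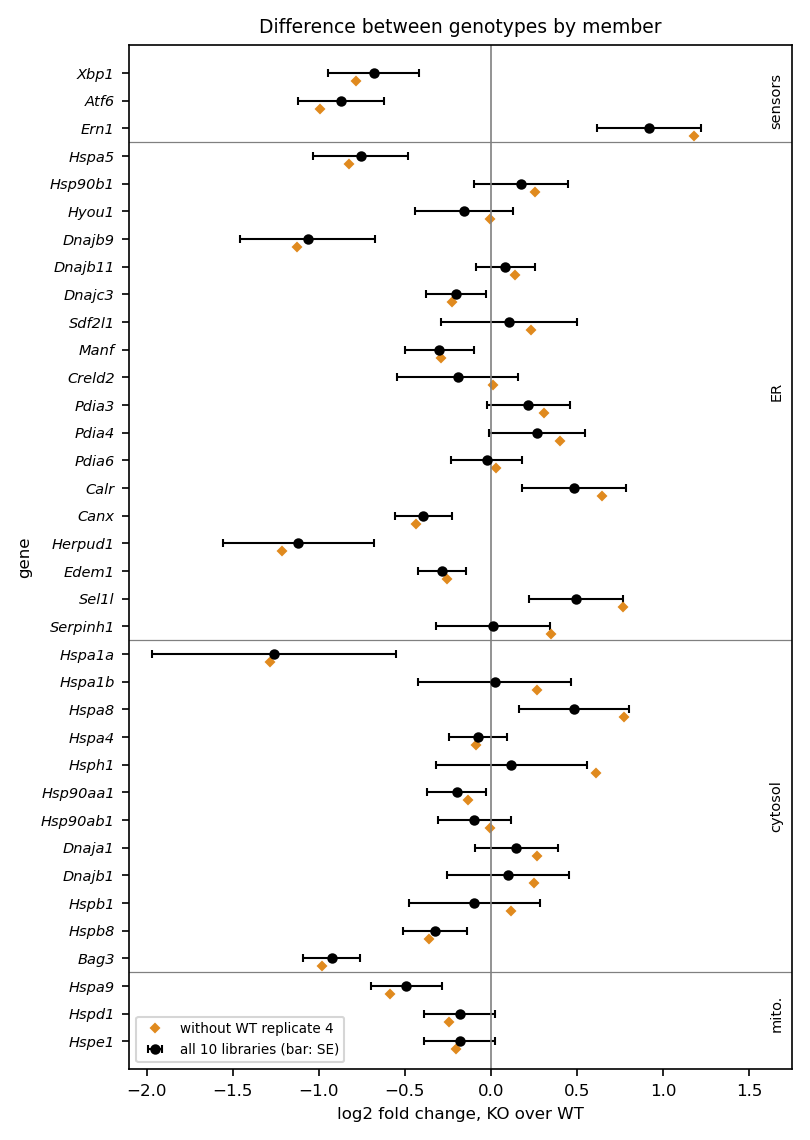
Log2 fold change of KO over WT for each member, by compartment. Black circles with bars give the estimate and its standard error (SE) from all 10 libraries, and orange diamonds the estimate without WT replicate 4. Bag3 stands at -0.92, and the diamonds of Ern1, Sel1l and Hspa8 lie to the right of their circles.

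The 3 genes of the sensor group had fold changes of both signs, and 0 of 3 passed in edgeR. Atf6 encodes the membrane-bound transcription factor that is cut free in the Golgi under stress (chromosome 1, 170704674 to 170867771, GRCm38). It was at 26.7, 22.0, 22.1 and 26.0 CPM in KO replicates 1 to 4 and at 24.4 to 67.8 CPM in WT (median 43.1). The groups overlapped through WT replicate 4 alone, which held the 24.4. Between the genotypes the log2 fold change came to -0.87 (SE 0.25, adjusted p = 0.0738).

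Xbp1, whose mRNA is spliced by IRE1alpha into the form that encodes the active factor (chromosome 11, 5520659 to 5525893), was at 235, 232, 244 and 178 CPM in KO and at 224 to 533 CPM in WT (median 321). WT replicates 1, 2 and 3 held 485, 533 and 386 CPM and the other WT libraries 224 to 256 CPM, and again WT replicate 4 was the one within the KO range. Between the genotypes the log2 fold change came to -0.68 (SE 0.26, adjusted p = 0.136). Gene counts do not separate the spliced from the unspliced form.

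Ern1, the gene of IRE1alpha itself (chromosome 11, 106394650 to 106487852), stood the other way. It was at 42.0, 51.2, 48.2 and 32.3 CPM in KO and at 12.9 to 42.1 CPM in WT (median 18.4). All KO libraries lay above every WT library except WT replicate 4, at 42.1 CPM. Between the genotypes the log2 fold change came to 0.92 (SE 0.30, adjusted p = 0.0986). At an unadjusted p under 0.05 all 3 genes of the sensor group differed, 2 lower and 1 higher in KO. The shares over all genes tested were 14.4% lower and 11.6% higher. The gene of the sensor PERK, Eif2ak3, is in the wider ER list below. Its log2 fold change came to -0.29 (SE 0.27, adjusted p = 0.509). Of the sensor group DESeq2 called 1 (Atf6), limma-voom 0 and limma-voom with quality weights 2 (Atf6 and Ern1). Their shares over all genes fitted were 7.07%, 2.32% and 12.4%. Without WT replicate 4 all 3 genes of the sensor group passed in edgeR, in a fit in which 21.4% of all genes tested passed. Their log2 fold changes were then -0.99 (Atf6, adjusted p = 0.00613), -0.78 (Xbp1, adjusted p = 0.0386) and 1.18 (Ern1, adjusted p = 0.00575). With 1 surrogate variable in the fit the log2 fold changes were 0.037 (Atf6), -0.023 (Xbp1) and 0.15 (Ern1).

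**Figure D3:**
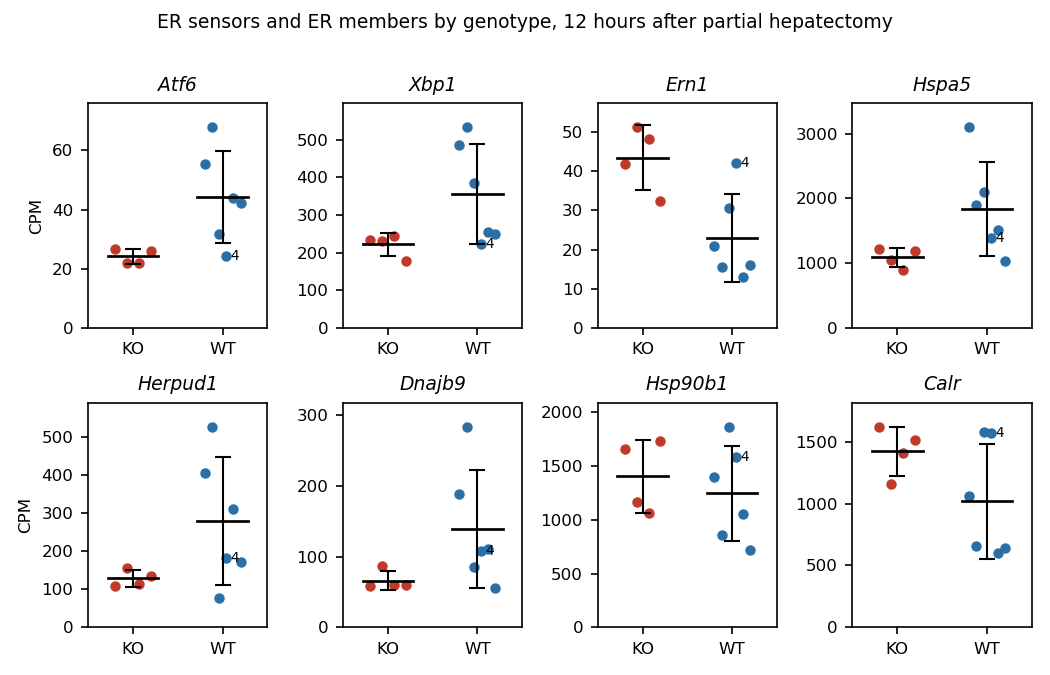
CPM of the 3 genes of the sensor group and 5 ER members in KO (left, n = 4) and WT (right, n = 6). Points are libraries, horizontal bars means and error bars 1 SD, and the point marked 4 is WT replicate 4. For Atf6, Xbp1 and Ern1 that point alone reaches the KO libraries, and for Calr and Hsp90b1 the WT libraries run from below to above the KO mean.

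Of the 18 ER chaperone and degradation genes edgeR's quasi-likelihood test called 0, against 1.33% of all genes tested. At an unadjusted p under 0.05, 4 were lower and 0 higher, where the shares over all genes were 14.4% and 11.6%. DESeq2 called 1 of the 18 (Dnajb9), limma-voom 0 and limma-voom with quality weights 0. Their shares over all genes fitted were 7.07%, 2.32% and 12.4%. The 4 lower genes were Hspa5, Dnajb9, Herpud1 and Canx.

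Hspa5, the BiP chaperone that also keeps the sensors inactive (chromosome 2, 34771970 to 34777547), was at 1222, 1048, 899.5 and 1182 CPM in KO and at 1027 to 3099 CPM in WT (median 1707). WT replicate 6 alone lay within the KO range, and WT replicate 1 was the highest library. Between the genotypes the log2 fold change came to -0.76 (SE 0.28, adjusted p = 0.120). Hsp90b1, the GRP94 chaperone with 2 ERSE copies in its window, was at 1658, 1167, 1067 and 1738 CPM in KO and 719.7 to 1864 CPM in WT (median 1227). All 4 KO libraries lay inside the WT range, and the log2 fold change came to 0.17 (SE 0.27, adjusted p = 0.722).

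The level of Hspa5 relative to Hsp90b1 within a library, which does not depend on the scaling, was 0.737, 0.898, 0.843 and 0.680 in KO replicates 1 to 4. In WT it was 2.22, 2.20, 1.13, 0.872, 1.44 and 1.43 in replicates 1 to 6. Only WT replicate 4 overlapped the KO range. This ratio was chosen after its values were seen and is given as a description with no test.

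Dnajb9, the co-chaperone ERdj4, which binds IRE1alpha with BiP (chromosome 12, 44205559 to 44210326), was at 59.2, 86.6, 60.0 and 59.6 CPM in KO and 55.2 to 284 CPM in WT (median 109.9). Herpud1, a membrane organiser of ER-associated degradation (chromosome 8, 94386438 to 94395377), was at 107, 157, 115 and 134 CPM in KO and 77.0 to 525 CPM in WT (median 246). Both were highest in WT replicates 2 and 1. Their log2 fold changes were the most negative of the ER genes, at -1.06 for Dnajb9 (SE 0.39, adjusted p = 0.124) and -1.12 for Herpud1 (SE 0.44, adjusted p = 0.139), and their WT libraries were also among the most spread (SD of log2(CPM + 0.5) of 0.83 and 1.00 in WT against 0.27 and 0.24 in KO). Overlap came through WT replicates 3 and 6 for Dnajb9 and through WT replicate 3 for Herpud1. With 1 surrogate variable the log2 fold changes were -0.39 for Hspa5, -0.18 for Dnajb9 and 0.028 for Herpud1.

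WT replicate 2, the highest library for Xbp1, Atf6, Dnajb9 and Herpud1, also had the highest sums of B and plasma cell, macrophage and neutrophil markers, and of hepatocyte markers. The 6 B and plasma cell markers summed to 236 CPM there, with 4.30 to 5.70 CPM in KO and 3.97 to 10.3 CPM in the remaining WT libraries. Of the 6, Igkc (199 CPM) and Jchain (34.3 CPM) made up that sum, while Mzb1 was at 0 there and Ms4a1 at 0.0756 CPM. Macrophage markers (6 genes) summed to 235 CPM there, where KO libraries had 27.6 to 58.9 CPM and the remaining WT libraries 36.1 to 103 CPM. Neutrophil markers (5 genes) summed to 159 CPM, where KO libraries had 3.69 to 12.0 CPM and the remaining WT libraries 7.21 to 34.5 CPM. Endothelial markers (5 genes) summed to 74.9 to 107.7 CPM in KO and 71.9 to 156 CPM in WT, highest in WT replicate 5. The 6 hepatocyte markers summed to 48576 to 58354 CPM in KO and 37044 to 81784 CPM in WT, highest in WT replicate 2. Single markers differed within these sums. Log2 fold changes were -1.77 for Lyve1 (adjusted p = 0.0642, no overlap), -0.98 for Cdh5 and 0.0006 for Stab2, with 3 endothelial markers below 0 and 2 above. Tat passed (log2 fold change -1.57, adjusted p = 0.0460), with 3 hepatocyte markers below 0 and 3 above. Fold changes were below 0 for 6 of 6 macrophage markers (median -0.98) and 4 of 4 tested neutrophil markers (median -2.37). They were below 0 for 2 of 2 tested B and plasma cell markers and 2 of 9 stellate and fibroblast markers, against 51.6% of all genes tested. None of these markers passed. WT replicate 1, with B and plasma cell markers at 3.97 CPM, had the next highest levels of Xbp1, Atf6, Dnajb9 and Herpud1. Without WT replicate 2 the log2 fold changes were -0.53 for Xbp1, -0.71 for Atf6, -0.73 for Dnajb9 and -0.84 for Herpud1, with adjusted p between 0.101 and 0.229. The part of these cells in the result was not tested.

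Lectin chaperones and disulfide isomerases had fold changes of both signs. Calr, the soluble lectin chaperone and calcium store (chromosome 8, 84841850 to 84846934), was at 1618, 1154, 1404 and 1509.7 CPM in KO and 600.3 to 1579.9 CPM in WT (median 861). WT replicates 3 and 4 lay among the KO libraries and the other 4 below them, and the log2 fold change came to 0.48 (SE 0.30, adjusted p = 0.327), and 0.65 without WT replicate 4 (adjusted p = 0.123). Canx, its membrane-bound relative, was at 162, 121, 111 and 166 CPM in KO and 155 to 218 CPM in WT (median 185), with a log2 fold change of -0.39 (SE 0.17, adjusted p = 0.160). Overlap came through the lowest WT library, replicate 4 at 155 CPM. The isomerases Pdia3, Pdia4 and Pdia6, which form disulfide bonds, had log2 fold changes of 0.22, 0.27 and -0.02 (0.02 for Pdia6 with upper-quartile scaling) and adjusted p of 0.571 or more. Pdia4 was narrow in KO, from 257 to 308 CPM, and ran from 118 to 356 CPM in WT.

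The other ER co-chaperones and folding factors had KO libraries within or near the WT range. Log2 fold changes were -0.16 for Hyou1, an exchange factor of BiP, 0.08 for Dnajb11, 0.10 for its partner Sdf2l1, -0.20 for Dnajc3, which inhibits PERK, -0.30 for the secreted factor Manf and -0.19 for Creld2, with adjusted p of 0.368 or more. Sdf2l1 and Creld2 varied most, from 20.4 to 101 CPM and from 62.9 to 286 CPM in WT, against 56.2 to 85.6 CPM and 129 to 163 CPM in KO. Sel1l, the adaptor of the HRD1 degradation ligase, was at 130.3, 159, 151 and 143 CPM in KO and 63.3 to 191 CPM in WT (median 90.5). Its log2 fold change came to 0.50 (SE 0.27, adjusted p = 0.267), and 0.77 without WT replicate 4 (adjusted p = 0.0131), the one WT library that reached the KO range. Edem1, which directs glycoproteins to degradation, was at 73.5 to 89.1 CPM in KO and 79.6 to 109 CPM in WT (log2 fold change -0.29, SE 0.14, adjusted p = 0.219). Serpinh1, the collagen chaperone HSP47 made chiefly by fibroblast-like cells, was at 15.1 to 23.7 CPM in KO and 9.32 to 38.1 CPM in WT (log2 fold change 0.01, and 0.35 with adjusted p = 0.303 without WT replicate 4). The 9 stellate and fibroblast markers summed to 188 to 209 CPM in KO and 128 to 262 CPM in WT. Serpinh1 and this sum both lay inside the WT range in KO. Single markers did not all do so. Acta2 reached 39.4 CPM in KO, above its WT maximum of 18.4 CPM. Pdgfrb fell to 7.28 CPM in KO, below its WT minimum of 8.33 CPM.

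The ERSE-bearing genes covered a range of differences. Log2 fold changes of the 7 were -0.76 (Hspa5), -0.39 (Canx), -0.20 (Dnajc3), -0.19 (Creld2), -0.02 (Pdia6), 0.17 (Hsp90b1) and 0.48 (Calr). The ERSE-II genes Herpud1 and Dnajb11 stood at -1.12 and 0.08.

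Libraries of one genotype varied more in WT than in KO, a description with no test between groups of 4 and 6. The SD of log2(CPM + 0.5) was larger in WT than in KO for 31 of the 36 members, with medians of 0.26 in KO and 0.53 in WT over the members and 0.23 in KO and 0.39 in WT over all genes tested. Among ER genes it was larger in WT for 17 of 18, with Canx the exception. Of the 18 ER genes, 13 had their lowest WT level in WT replicate 6, while 8 were highest in WT replicate 3 and 5 in WT replicate 4. Of the 12 cytosolic members, 7 were highest in WT replicate 4. Over the mitochondrial members the median SD was 0.34 in KO and 0.32 in WT, with a larger SD in WT for 1 of 3. Counts by larger SD and by highest or lowest library were not made over all genes tested. They are therefore not read as traits of the members.

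**Figure D4:**
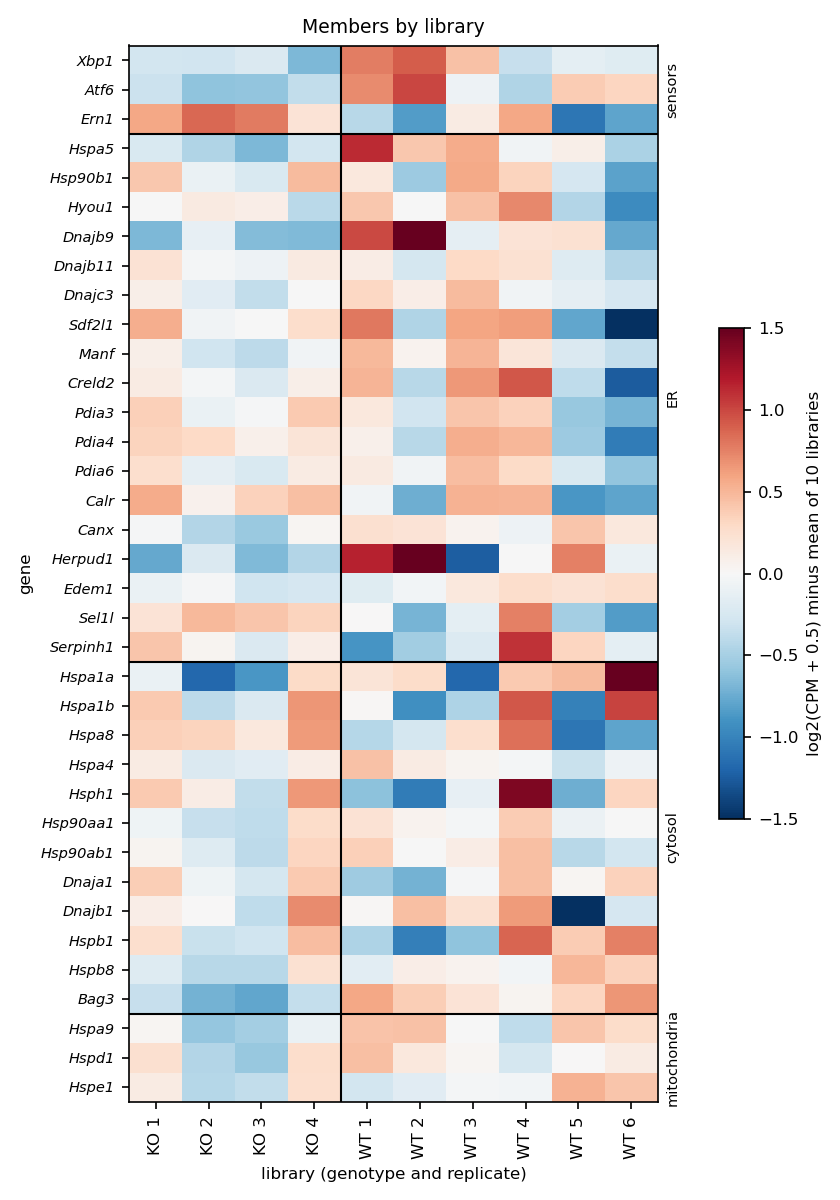
Each member in each library as log2(CPM + 0.5) minus its mean over the 10 libraries, with KO columns left of WT and colours capped at 1.5 in either direction. The WT columns differ more among themselves than the KO columns do, ER rows are pale or blue in WT 6, and the Bag3 row is blue in all 4 KO and not in WT.

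Among the 12 cytosolic members Bag3 fell and 0 rose, against 0.767% and 0.563% of all genes tested. BAG3 is an HSF1-induced co-chaperone of HSP70 that, with the small heat shock protein HSPB8, sends clients to autophagy (chromosome 7, 128523616 to 128546981). It was at 39.9, 31.1, 29.5 and 39.9 CPM in KO and at 52.6 to 81.2 CPM in WT (median 65.2). The groups did not overlap, and the lowest WT library was replicate 4. The fold change was -0.92 on the log2 scale (SE 0.17, adjusted p = 0.0418 in edgeR), or 1.90-fold lower in KO. Its WT and KO spreads were equal to 2 decimals (SD of 0.23 each on the log2(CPM + 0.5) scale). Leaving out any 1 KO library ended the call (adjusted p of 0.123 to 0.147), as did leaving out WT replicate 1 (0.0791), 3 (0.0637), 5 (0.0796) or 6 (0.0652), while the log2 fold change stayed between -0.99 and -0.85 in all 10 such fits. DESeq2 (adjusted p = 4.12e-05) and limma-voom (adjusted p = 0.0269) also called it, and a fit with 1 surrogate variable did not (log2 fold change -0.71, adjusted p = 0.976). Hspb8, its partner, was at 148, 126, 126 and 197 CPM in KO and 150.2 to 239 CPM in WT (median 178), with a log2 fold change of -0.32 (SE 0.18, adjusted p = 0.284).

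Other heat shock genes had KO libraries within or near the WT range. Hsph1, an HSP110 exchange factor, was at 35.2, 29.0, 20.7 and 42.2 CPM in KO and 12.7 to 71.2 CPM in WT (median 20.9), with a log2 fold change of 0.12 (SE 0.44, adjusted p = 0.890). Its highest library was WT replicate 4, and without it the log2 fold change came to 0.61 (adjusted p = 0.135). Dnajb1 and Dnaja1, J-domain partners of HSP70, had log2 fold changes of 0.10 (SE 0.36) and 0.15 (SE 0.24). Hspb1, a small heat shock protein, ran from 7.47 to 13.4 CPM in KO and from 4.46 to 17.9 CPM in WT. Hspa1b ran from 4.93 to 10.8 CPM in KO and from 3.02 to 13.8 CPM in WT, and Hspa1a from 0.154 to 1.31 CPM in KO and from 0.153 to 4.25 CPM in WT, with as few as 2 counts in a library.

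The constitutive cytosolic chaperones were more abundant. Hspa8, the housekeeping HSP70 (chromosome 9, 40800984 to 40810087), was at 482, 473, 421 and 586 CPM in KO and at 177 to 669.8 CPM in WT (median 297). WT replicate 4 was above all KO libraries and WT replicate 3, at 448 CPM, within their range. Between the genotypes the log2 fold change came to 0.48 (SE 0.32, adjusted p = 0.355) with all libraries and 0.77 (adjusted p = 0.0414) without WT replicate 4. Set against Hspa5 in the same library, Hspa8 stood at 0.395 to 0.496 in KO and at 0.0901 to 0.484 in WT, with the other WT libraries at or below 0.213 and WT replicate 4 at 0.484. This ratio pairs genes with fold changes of opposite sign, so a difference follows from the choice of pair. It is given as a description with no test. Hsp90aa1 and Hsp90ab1, the inducible and constitutive HSP90 genes, had log2 fold changes of -0.20 (SE 0.17) and -0.10 (SE 0.21), and for Hspa4, another HSP110 relative, KO libraries at 98.3 to 125 CPM lay within the WT range of 90.6 to 156 CPM.

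Some of these counts are uncertain because near-identical copies exist. Of the distinct 100-base stretches in annotated transcripts, 48.6% of those of Hspa1a and 49.9% of those of Hspa1b occur in another gene, mainly in each other. The genes lie 9951 bases apart on chromosome 17. The share was 44.0% for Hspb1, 38.0% for Hsp90aa1, 28.2% for Hspa8 and from 9.21% to 23.4% for Dnaja1, Hspe1 and Hspd1, whose matches include annotated pseudogenes or predicted genes. It was at most 1.26% for the other members. Bag3, Hspa5, Herpud1 and the 3 genes of the sensor group had 0 shared stretches.

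**Figure D5:**
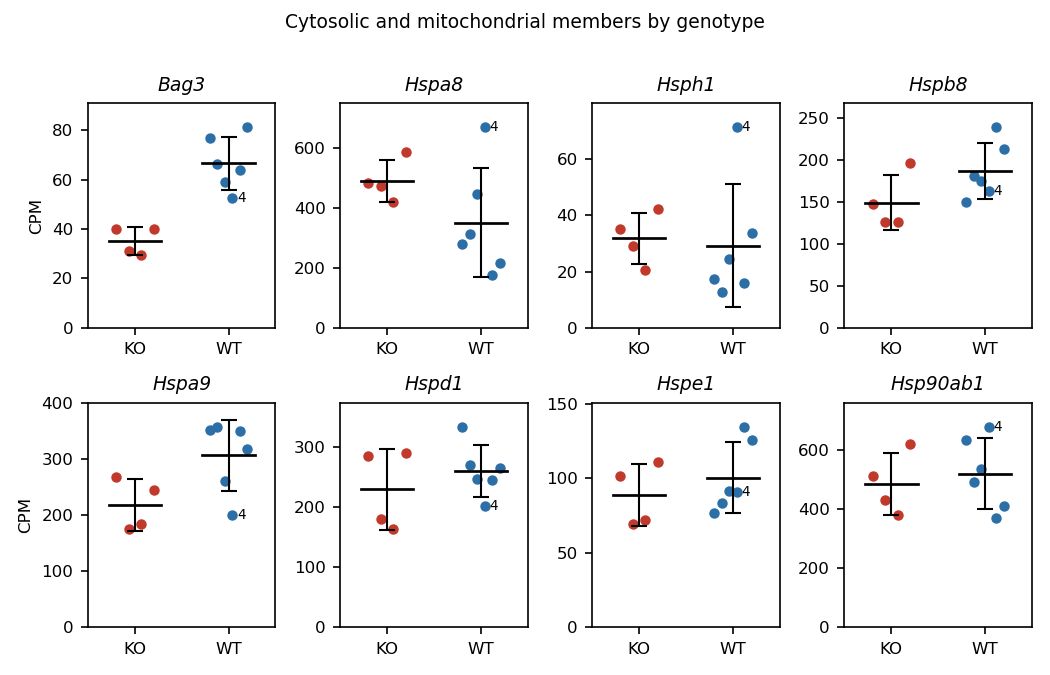
CPM of 5 cytosolic and 3 mitochondrial members in KO (left, n = 4) and WT (right, n = 6). Points are libraries, horizontal bars means and error bars 1 SD, and the point marked 4 is WT replicate 4. Bag3 is the one panel in which the KO libraries, at 29.5 to 39.9 CPM, lie below every WT library.

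Of the 3 mitochondrial chaperones edgeR called 0, against 1.33% of all genes tested. At an unadjusted p under 0.05, 1 (Hspa9) was lower in KO, against 14.4% of all genes tested. DESeq2, limma-voom and limma-voom with quality weights called 0, where their shares over all genes fitted were 7.07%, 2.32% and 12.4%. Hspa9, mortalin, the HSP70 that pulls proteins into the matrix (chromosome 18, 34937414 to 34954357), was at 268, 175, 184 and 245 CPM in KO and at 201 to 357 CPM in WT (median 334). WT replicates 3 and 4 overlapped the KO range and the other 4 lay above it. Between the genotypes the log2 fold change came to -0.49 (SE 0.20, adjusted p = 0.157), and -0.59 without WT replicate 4 (adjusted p = 0.0354).

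Hspd1 and Hspe1 encode the subunits of the HSP60-HSP10 folding chamber and are transcribed in opposite directions from one control region on chromosome 1. Their annotated exons overlap by 112 bases (Hspd1 at 55077835 to 55088243 on the minus strand, Hspe1 at 55088132 to 55091307 on the plus strand), so reads there cannot be assigned without strand. Hspd1 was at 286, 179.7, 164 and 291 CPM in KO and 203 to 334 CPM in WT (median 256). Hspe1 was at 102, 69.5, 72.2 and 111 CPM in KO and 77.1 to 134 CPM in WT (median 91.3). In KO both genes were higher in replicates 1 and 4 than in replicates 2 and 3, and so was Hspa9. This order was not particular to mitochondrial members. It also held for Hsp90b1, Calr, Canx and Bag3, and not for Xbp1, Ern1 or Sel1l. In WT the order of Hspd1 and Hspe1 differed, with Hspd1 highest in replicate 1, at 334 CPM, where Hspe1 was lowest, at 77.1 CPM. Both log2 fold changes were -0.18 (SE 0.21 each, adjusted p = 0.608 for Hspd1 and 0.605 for Hspe1).

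The wider machinery of ER folding gave 2 calls in edgeR, both lower in KO, and the number called depended on the tool. Of 50 further ER genes (translocation, signal peptide cleavage, glycosylation, oxidation and degradation), 2 fell and 0 rose, against 0.767% and 0.563% of all genes tested. This list too was chosen with earlier results of these data known. Spcs1, a subunit of the signal peptidase, was at 41.9, 25.3, 28.3 and 34.6 CPM in KO and 39.0 to 83.7 CPM in WT, with WT replicate 4 as the lowest (log2 fold change -0.98, SE 0.21, adjusted p = 0.0486). Nploc4, a cofactor of the ATPase p97 that extracts proteins in degradation, was at 46.9, 35.6, 38.0 and 40.4 CPM in KO and 47.8 to 92.5 CPM in WT, with no overlap (log2 fold change -0.83, SE 0.18, adjusted p = 0.0490). Both calls were lost with upper-quartile scaling (adjusted p = 0.0557 for each) and without any 1 library other than WT replicate 4. Fold changes were below 0 in 41 of the 50, against 51.6% of all genes tested, with a median of -0.29. At an unadjusted p under 0.05, 20 were lower and 3 higher, where the shares over all genes were 14.4% and 11.6%. KO and WT were fully separated for 12 of the 50, against 6.90% of all genes tested. DESeq2 called 15 of the 50, limma-voom 2 and limma-voom with quality weights 11, where their shares over all genes fitted were 7.07%, 2.32% and 12.4%. Without WT replicate 4 edgeR called 20 of the 50, against 21.4% of all genes tested.

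Further cytosolic and mitochondrial genes were divided. Of 38 cytosolic folding genes, among them the chaperonin CCT, prefoldin and HSP90 co-chaperones, edgeR called 0, with 3 higher and 4 lower at an unadjusted p under 0.05 and a median log2 fold change of -0.04, where the shares over all genes were 11.6% and 14.4%. DESeq2 called 3 of them, limma-voom 0 and limma-voom with quality weights 5, where their shares over all genes fitted were 7.07%, 2.32% and 12.4%. Of 20 mitochondrial folding, import and protease genes edgeR called 0, with a median log2 fold change of 0.03. At an unadjusted p under 0.05, 6 were higher and 2 lower, against 11.6% and 14.4% of all genes tested. DESeq2 called 3 of the 20, limma-voom 0 and limma-voom with quality weights 5, against 7.07%, 2.32% and 12.4% of all genes fitted. Without WT replicate 4 edgeR called 12 of the 38 and 5 of the 20, against 21.4% of all genes tested.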

How the data were processed

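The values are raw counts of reads per gene symbol, which the authors deposited in a single table with 1 column for each library. The submitters' processing notes name STAR, HTSeq, DESeq2 and build mm10. The sources used here give neither their versions and roles nor the annotation or strand setting. Per the labels' protocols, TRIzol RNA was selected with oligo(dT) and sequenced on an Illumina NovaSeq after NEBNext Ultra library preparation.

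Groups came from the labels. Libraries of a group differed beyond sampling noise (chi-square per degree of freedom of 20.8 to 169). The labels do not say that each library is another animal, so the p-values cover only the spread among libraries, which may be technical.

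All genes were fitted together in edgeR 4.0.16 (R 4.3.3), with TMM scaling, filterByExpr, a robust quasi-likelihood test and Benjamini-Hochberg adjustment over 13688 genes. The SE is the size of the log2 fold change divided by the square root of F. Alternatives used DESeq2 1.42.0, limma 3.58.1 and sva 3.50.0. In counts simulated for KO against WT with 13420 genes tested, calls recovered 6% of genes changed 1.5-fold, 38% of those changed 2-fold and 82% of those changed 4-fold. The simulation gave KO and WT the same spread for each gene and had no library that stood apart. The real libraries varied more in WT, so these shares may not hold for them. Coordinates and exon lengths are from GENCODE M21 (GRCm38).

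The members and gene lists were chosen with earlier results of these data known. Named genes were the members, Ifrd1, Eif2ak3 for PERK and up to 3 called genes of each wider list. Markers are named for a library that stood apart.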

Additional observations from a re-analysis of the deposited data

Results flagged for a closer look

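The 78 groups of libraries examined were KO and WT for each member, Ifrd1 and the called genes of the wider lists. In 3 of the 78, 1 library stood far from the others by Dixon's test, which flags about 1 group in 20 by chance. Dnajb9 was at 86.6 CPM in KO replicate 2, against 59.2 to 60.0 CPM in the other KO libraries. Hspa1a was at 4.25 CPM in WT replicate 6, against at most 1.55 CPM in the other WT libraries. Hsph1 was at 71.2 CPM in WT replicate 4, against at most 33.7 CPM in the other WT libraries.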

How the results depend on the processing

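With all libraries edgeR called 182 genes (77 higher and 105 lower in KO), 1 member and 2 genes of the wider lists. DESeq2 called 1624 genes, 3 members and 21 wider genes, limma-voom with quality weights 1700, 3 and 21, and limma-voom 318 genes (231 higher and 87 lower). Upper-quartile scaling called 153 genes (78 higher and 75 lower) and 0 wider genes. With 1 surrogate variable edgeR called 0 genes, 0 members and 0 wider genes, with 537 genes and 4 members at an unadjusted p under 0.05. The replicate block over numbers 1 to 4 also called 0, 0 and 0, with 2860 genes and 7 members at an unadjusted p under 0.05. Leaving out 1 library gave 0 to 2893 genes, 0 to 7 members and 0 to 37 wider genes, each highest without WT replicate 4. Same-numbered libraries did not deviate together (correlations of 0.18, 0.07, -0.03 and -0.01), so the numbers were not taken as pairs. Bag3 stayed lower in KO in all 20 alternatives and was called in 10 of them. With 1 surrogate variable log2 fold changes changed sign for Atf6 (0.037), Herpud1 (0.028), Hspa9 (0.039), Hspa4 (0.036), Hspd1 (0.11), Hsp90b1 (-0.27), Calr (-0.20), Sel1l (-0.14), Pdia3 (-0.14), Pdia4 (-0.23), Dnajb11 (-0.17), Sdf2l1 (-0.35), Serpinh1 (-0.73), Hspa1b (-0.91), Hspa8 (-0.15), Hsph1 (-1.01), Dnaja1 (-0.43) and Dnajb1 (-0.14). In that fit Xbp1 (-0.023) and Ern1 (0.15) kept their sign and moved toward 0. Under the replicate block they changed sign for Dnajb11 (-0.038), Sdf2l1 (-0.21), Pdia3 (-0.0019), Dnajb1 (-0.24), Hspb1 (0.34) and Hspe1 (0.017). Pdia6 was at 0.017 with upper-quartile scaling, 0.0015 with limma-voom and 0.0017 with quality weights, and Hspb1 at 0.071 with both of the last. Leaving out 1 library gave both signs for Sdf2l1 (-0.080 to 0.29), Creld2 (-0.37 to 0.014), Pdia6 (-0.12 to 0.076), Serpinh1 (-0.13 to 0.35), Hspa1b (-0.19 to 0.29), Hspa4 (-0.14 to 0.018), Hsph1 (-0.043 to 0.61), Hsp90ab1 (-0.23 to 0.0089), Dnajb1 (-0.15 to 0.25) and Hspb1 (-0.27 to 0.12). The cause of these changes was not tested. Depth limits Hspa1a most, at as few as 2 counts in a library.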
